A study of Homo sapiens with 6 samples.

Results

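The nuclear-encoded respiratory chain was followed gene by gene in human forebrain organoids exposed to the amyloid-β peptide Aβ42. Members were taken by gene symbol: subunits of complex I (symbols starting NDUFA, NDUFB, NDUFC, NDUFS or NDUFV), of succinate dehydrogenase (SDHA to SDHD), of complex III (UQCR symbols and CYC1), of cytochrome c oxidase (COX4 to COX8) and of ATP synthase (ATP5 symbols), with cytochrome c itself (CYCS). Assembly factors of the NDUFAF series were left out. The rule found 90 genes among the 18056 in the table, 38 of complex I, 4 of complex II, 10 of complex III, 15 of complex IV, 20 of complex V, the NDUFA4 pair (NDUFA4 and NDUFA4L2) and CYCS. Of these, 83 had enough counts to test, among 13842 genes tested in all. No measured value entered the rule.

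The organoids came from DYR0100, a single induced pluripotent stem cell line of wild-type genotype, grown toward dorsal forebrain. Vehicle was compared with 5 µM Aβ42, each given for 6 days, in 3 libraries a group and 1 batch. The replicates are described as independent. Whether organoids were pooled, and their age at treatment, are not given in the sources used here, so p-values measure the spread between these libraries. The tissue is bulk: fewer cells of a type and less RNA per cell cannot be told apart.

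The respiratory chain sits in the inner mitochondrial membrane. Complex I takes electrons from NADH and complex II takes them from succinate, a step shared with the tricarboxylic acid cycle. Both pass electrons through ubiquinone to complex III, cytochrome c carries them on to complex IV, where oxygen is reduced, and complex V uses the resulting proton gradient to make ATP. Most subunits are encoded in the nucleus and imported, while a few core subunits of complexes I, III, IV and V come from mitochondrial DNA. Those mitochondrially encoded subunits were not analysed here. Neurons depend heavily on this pathway.

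Promoters of respiratory chain genes are known for binding sites of NRF1 and of ETS factors such as GABP. RefSeq windows (build GRCh38.p14) from 250 bases before to 50 after the start were found for 70 of the 83 tested members. The NRF1 core TGCGCATGC, on either strand, was in 7 of them (10%), against 2.6% of 11307 tested genes with a window and 1.6% of all 27305 windows of that length. The ETS core CCGGAAG was in 20 (28.6%, against 18.4% and 10.7%). The cores of the hypoxia response element, ACGTG or GCGTG, were in 43 (61.4%, against 62.5% and 48.4%). A match describes these letters, not a bound factor. Complex IV held the ETS core in 5 of 10 windows and complex I in 5 of 33. The stretches shown are the 150 bases before the start of COX7C and COX6B1, which were higher with Aβ42, of ATP5PB, which was lower (values follow), and of COX5B and SDHD, which hold both cores. Whole NRF1 and ETS cores on either strand are in capitals. They lie at chr5:86617791-86617940 (COX7C), chr19:35648173-35648322 (COX6B1), chr1:111449314-111449463 (ATP5PB), chr2:97645912-97646061 (COX5B) and chr11:112086723-112086872 (SDHD), all on the plus strand.
COX7C: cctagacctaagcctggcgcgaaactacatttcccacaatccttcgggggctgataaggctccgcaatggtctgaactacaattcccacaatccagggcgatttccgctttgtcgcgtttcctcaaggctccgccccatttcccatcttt
COX6B1: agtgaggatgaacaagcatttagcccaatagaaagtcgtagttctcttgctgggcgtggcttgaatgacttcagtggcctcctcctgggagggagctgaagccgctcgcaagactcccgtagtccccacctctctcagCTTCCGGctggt
ATP5PB: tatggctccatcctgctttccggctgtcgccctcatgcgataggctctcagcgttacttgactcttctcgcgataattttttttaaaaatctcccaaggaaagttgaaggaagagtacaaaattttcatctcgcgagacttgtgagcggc
COX5B: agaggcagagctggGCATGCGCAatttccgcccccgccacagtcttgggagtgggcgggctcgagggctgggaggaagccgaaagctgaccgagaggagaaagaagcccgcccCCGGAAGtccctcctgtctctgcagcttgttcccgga
SDHD: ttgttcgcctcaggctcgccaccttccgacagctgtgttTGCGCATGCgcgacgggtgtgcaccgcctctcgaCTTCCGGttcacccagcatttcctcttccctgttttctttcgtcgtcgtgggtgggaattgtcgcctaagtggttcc

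Neither core occurs in the stretches of COX7C and ATP5PB, and that of COX6B1 holds a single ETS core close to the start. COX5B, a subunit on the matrix side of complex IV, and SDHD, a membrane anchor of complex II, had log2 fold changes of 0.09 ± 0.07 and 0.08 ± 0.07 (Aβ42 over vehicle, ± SE), with adjusted p-values of 0.476 and 0.533 by edgeR's quasi-likelihood test.

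Library totals lay between 16465390 and 16742958 estimated counts, and tested members had a median of 698.3 counts per library (lowest member 45.6, highest 7925). Levels are given as CPM, the counts scaled to a common library total. The 8 forebrain identity markers, all tested, summed to 1963 to 2033 CPM under vehicle and 1886 to 1988 CPM under Aβ42. Of these, 1 was lower at an unadjusted p-value below 0.05 by edgeR. At that level 12.4% of all genes tested were higher and 11.5% lower, beside which the marker counts below stand. Proliferation markers summed to 786.7 to 939.2 CPM under vehicle and 515.5 to 721.4 CPM under Aβ42, and 9 of 10 were lower at that level. Intermediate progenitor markers summed to 322.2 to 384.6 CPM and 252.7 to 262.6 CPM (6 of 7 lower), and pan-neuronal markers to 7249 to 7680 CPM and 6768 to 7078 CPM (4 of 10 lower, 1 higher). Radial glia markers summed to 5433 to 5616 CPM and 5316 to 5618 CPM (3 of 10 lower, 1 higher). Astrocyte markers summed to 671.4 to 686.7 CPM and 641.4 to 687.8 CPM (2 of 8 lower, 1 higher). Gene by gene, 6 of these 8 had a log2 fold change below 0, with a median of -0.54. No tested marker of choroid plexus (7 of 7 tested), mesenchyme (4 of 6) or striated muscle (3 of 9) reached that level. Choroid plexus markers summed to 457.0 to 985.6 CPM and 395.3 to 916.2 CPM. Of them, 6 had a log2 fold change below 0, with a median of -0.48. Mesenchyme markers summed to 42.4 to 79.7 CPM and 33.3 to 45.4 CPM. Striated muscle markers summed to 5.53 to 6.75 CPM and 4.45 to 5.48 CPM. The 9 microglia markers summed to 0.37 to 0.79 CPM over the 6 libraries, with TREM2, TYROBP, C1QA, C1QB and C1QC at 0 in each. The part of these marker differences in the results on the respiratory chain was not tested.

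No member passed an adjusted p-value of 0.05 without a block, and the same holds for every gene in the table (0% called). At an unadjusted p-value below 0.05, 13 of the 83 tested members were higher and 2 were lower, that is 15.7% and 2.41%, where 12.4% and 11.5% of all genes tested were. In both directions together this is 18.1% of members against 23.9% of all genes. DESeq2 called 1 member, COX7C (1.2% of members, against 6.3% of all genes it tested), and limma-voom 0 (0% of all genes). With sample quality weights, limma-voom called 10 members (12%, against 17.8% of all genes). The 3 Aβ42 values lay all above the 3 vehicle values for 17 members (20.5%, against 13.6% of all genes) and all below for 4 (4.82%, against 13.4%). Most members are short genes, and the shortest 10% of tested genes leaned the same way. Of those 1378 genes, 261 lay all above and 90 all below. At an unadjusted p-value below 0.05 by edgeR, 206 of them were higher and 70 lower. Differences were small, with a median size of the log2 fold change of 0.09 over members and 0.12 over all genes tested. The largest among members was 0.35, for ATP5ME.

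With the replicate number as a block (a term in the model for libraries that share a number), 9 members passed an adjusted p-value of 0.05. No pairing is stated for these libraries, and the block was adopted from correlations in these same data, given with the processing below. COX7C, COX7A2 and COX6B1 of complex IV, UQCRC2 of complex III, ATP5ME and ATP5MG of complex V and NDUFA4 rose, and NDUFA11 of complex I and ATP5PB of complex V fell. These are 8.43% of tested members higher and 2.41% lower, against 7.12% and 7.05% of all genes in that fit. Leaving out Aβ42 replicate 2 from the fit without a block gave 12 members, 9 higher and 3 lower (14.3% of the 84 tested there, against 23.1% of all genes). They comprised the 9 of the block together with SDHC and NDUFB4, higher, and NDUFC2, lower.

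**Figure D1:**
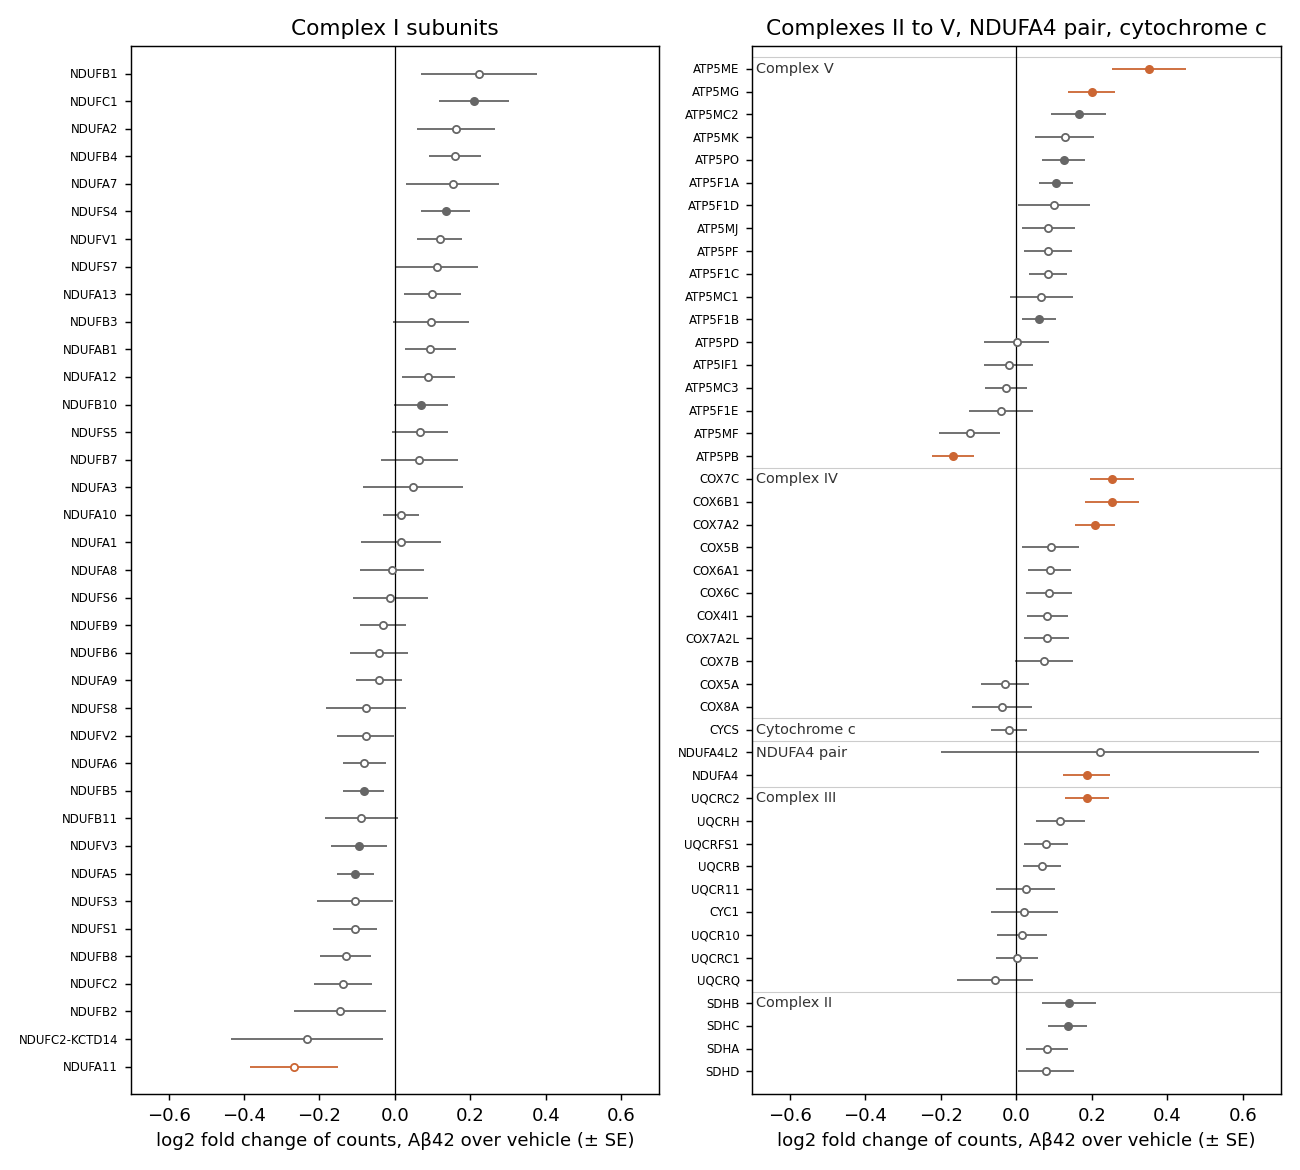
Log2 fold change of counts (Aβ42 over vehicle, points) with its standard error (bars) for the tested members, complex I on the left and the other groups on the right. Filled points mark members whose groups did not overlap, and orange marks the 9 members past an adjusted p-value of 0.05 with the replicate block. Complex I spreads to both sides of 0, from -0.27 to 0.22, while all 4 complex II genes and 9 of 11 complex IV genes lie above 0.

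Complex I takes in NADH electrons through a matrix arm and pumps protons through a membrane arm. Its 38 tested genes were evenly divided, 19 with a log2 fold change above 0 and 19 below, with a median of 0.0034 and a range from -0.27 to 0.22. On the log2(TPM + 1) scale, where TPM are the deposited levels per gene length, the median was -0.08 and that of all genes -0.04. At an unadjusted p-value below 0.05, 2 were higher and 1 lower, against 12.4% and 11.5% of all genes tested. By module, the 10 genes of the NADH-oxidising N module had a median of 0.04. That of the 5 genes of the ubiquinone-reducing Q module was -0.08, and that of the 22 grouped here under the membrane arm 0.02. NDUFA9 was counted among those 22 and not in the Q module, and the medians depend on such placements. No N or Q module gene reached that level. The read-through NDUFC2-KCTD14 (-0.23 ± 0.20) is counted in the 38 but in no module.

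NDUFA11, a membrane-arm subunit (Entrez gene ID 126328), fell in the fit with the block. It stood at 20.1, 22.9 and 21.5 CPM in vehicle replicates 1 to 3 and at 15.7, 21.4 and 16.5 CPM in Aβ42 replicates 1 to 3. Aβ42 replicate 2 lay within the vehicle range and the other Aβ42 libraries below it. The log2 fold change was -0.27 ± 0.12 (adjusted p-value 0.198, and 0.0485 with the block). When single libraries were left out it ran from -0.42 to -0.18. The -0.42 came without Aβ42 replicate 2, the Aβ42 library inside the vehicle range (adjusted p-value 0.00672 by edgeR). In that fit 23.1% of all genes passed.

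On the higher side were NDUFC1 and NDUFB4, both of the membrane arm. NDUFC1 went from 15.8, 14.3 and 16.95 CPM to 17.98, 17.2 and 19.3 CPM without overlap, with a fold change on the log2 scale of 0.21 ± 0.09 (adjusted p-value 0.205). NDUFB4 went from 45.3, 47.8 and 42.1 CPM to 52.7, 46.97 and 51.5 CPM, with Aβ42 replicate 2 inside the vehicle range (0.16 ± 0.07, 0.196). NDUFA5, a Q module subunit, was on the lower side, from 154.8, 164.8 and 159.2 CPM to 154.7, 145.0 and 145.5 CPM. Its groups were only just apart, with Aβ42 replicate 1 beside vehicle replicate 1 (-0.11 ± 0.05, adjusted p-value 0.216).

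Neither of the core subunits NDUFS1 and NDUFV1 passed. NDUFS1, the large iron-sulphur subunit, averaged 182.1 ± 10.7 CPM under vehicle and 169.2 ± 9.69 CPM under Aβ42 (SD, n = 3 each), with -0.11 ± 0.06 as log2 fold change. NDUFV1, which binds NADH, averaged 65.6 ± 2.79 and 71.3 ± 4.01 CPM (0.12 ± 0.06). Their adjusted p-values by edgeR were 0.29 and 0.252. NDUFS5 and NDUFA13, the most abundant complex I transcripts per length at 940.5 and 540.4 TPM, had log2 fold changes of 0.07 ± 0.07 and 0.10 ± 0.07 on counts and of -0.05 and -0.01 on the log2(TPM + 1) scale. Aβ42 replicate 1 held the lowest of the 6 values for 14 of the 38 genes (36.8%, against 20.8% of all genes tested). Aβ42 replicate 2 held the highest for 10 (26.3%, against 11%).

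All 4 subunits of complex II had a log2 fold change above 0, with a median of 0.11, and none passed. SDHA, the flavoprotein that oxidises succinate, stood at 112.1, 111.6 and 117.4 CPM under vehicle and 122.3, 111.9 and 126.4 CPM under Aβ42. Aβ42 replicate 2 lay within the vehicle range, and the log2 fold change was 0.08 ± 0.06 (adjusted p-value 0.395). SDHB, the iron-sulphur subunit, stood at 26.1, 24.1 and 26.4 CPM and 29.01, 27.5 and 27.9 CPM. These groups did not overlap (0.14 ± 0.07, adjusted p-value 0.255).

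SDHC, a membrane anchor that helps to bind ubiquinone (Entrez gene ID 6391), gave opposite signs in counts and in TPM. Its CPM were 139.8, 137.2 and 141.7 under vehicle and 157.3, 143.6 and 159.4 under Aβ42, all Aβ42 libraries above all vehicle libraries. Its deposited TPM were 142.7, 141.9 and 146.5 under vehicle and 128.2, 134.1 and 129.9 under Aβ42, all Aβ42 libraries below all vehicle libraries. The log2 fold change was 0.14 ± 0.05 on counts (adjusted p-value 0.151) and -0.14 on the log2(TPM + 1) scale, and neither passed. The gene length implied by dividing count by TPM, scaled to the library's median gene, was 91.8%, 92.8% and 91.8% of the gene's own mean under vehicle and 113.1%, 99.7% and 110.9% under Aβ42. Implied lengths were therefore greater in each Aβ42 library. Its estimated counts were not whole, and how the authors' counting assigned lengths and shared reads is not given in the sources used here. SDHC was the only one of the 83 tested members whose log2 fold change in TPM lay more than 0.2 below that in counts, where 424 of 13842 genes did.

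**Figure D2:**
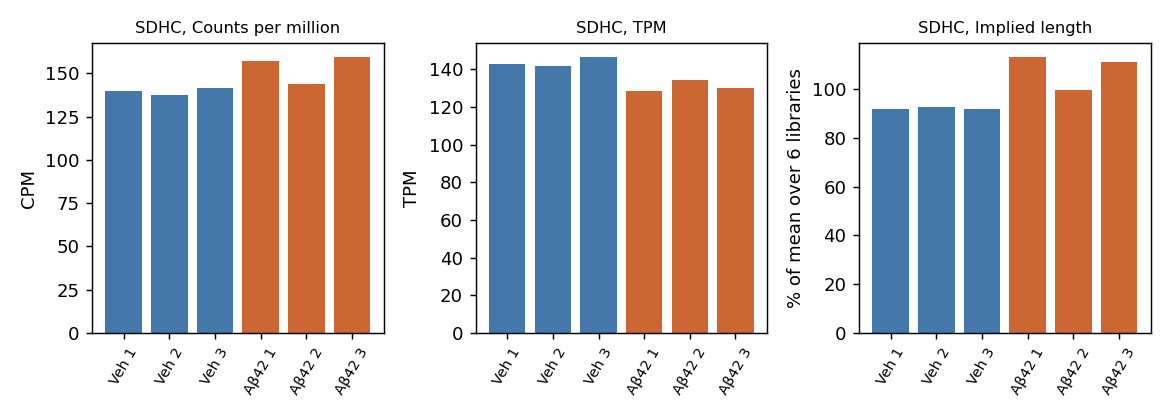
SDHC in each library as CPM (left), deposited TPM (middle) and implied length in percent of its mean over the 6 libraries (right), vehicle in blue and Aβ42 in orange. CPM of the Aβ42 libraries lie above those of vehicle, TPM lie below, and the implied length runs from 91.8% to 92.8% under vehicle and from 99.7% to 113.1% under Aβ42.

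Complex III passes electrons from ubiquinol to cytochrome c. In it, 8 of 9 tested genes had a log2 fold change above 0. The median was 0.03, and 0.10 without Aβ42 replicate 1. It was -0.02 after a correction of each library for gene length. On the log2(TPM + 1) scale it was -0.04, as was that of all genes tested. UQCRC2, a core protein on the matrix side (Entrez gene ID 7385), rose in the fit with the block. It went from 166.1, 150.5 and 163.6 CPM to 184.2, 169.9 and 192.8 CPM. Replicate 2 was the lowest library of each group, and the groups did not overlap. The log2 fold change was 0.19 ± 0.06 (adjusted p-value 0.109, and 0.0203 with the block).

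Its partner UQCRC1 averaged 57.04 ± 0.92 and 57.1 ± 2.53 CPM. CYC1, which carries the haem of cytochrome c1, had a log2 fold change of 0.02 ± 0.09, and UQCRFS1, the Rieske iron-sulphur protein, 0.08 ± 0.06 (adjusted p-values 0.902 and 0.42 by edgeR). UQCRH, the most abundant per length at 767.6 TPM, had 0.12 ± 0.07 (0.299), and UQCRQ -0.06 ± 0.10 (0.763). CYCS, which shuttles electrons from complex III to complex IV, stood at 202.2, 197.9 and 199.1 CPM under vehicle and 193.9, 207.5 and 190.0 CPM under Aβ42. Its groups overlapped (-0.02 ± 0.05, adjusted p-value 0.836).

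Complex IV, where oxygen is reduced, had 3 of 11 tested subunits that passed with the block, all higher, where 7.12% of all genes were called higher and 7.05% lower. With the block and a correction of each library for gene length, COX7C alone of them passed. Of its 15 genes 11 were tested and 9 had a log2 fold change above 0. The median was 0.09, against 0.0032 over all genes tested, and it was 0.03 after the length correction. On the log2(TPM + 1) scale it was 0.0068, against -0.04 over all genes tested. Of these 11 genes 10 were among the shortest 10% of tested genes, whose own median was 0.06. COX7C, a small membrane subunit (Entrez gene ID 1350), stood at 85.1, 86.03 and 87.2 CPM in vehicle replicates 1 to 3 and at 100.5, 96.2 and 111.1 CPM in Aβ42 replicates 1 to 3. The groups did not overlap, and Aβ42 replicate 3 was the highest library. Its log2 fold change was 0.25 ± 0.06, with an adjusted p-value of 0.0734 without the block and 0.00721 with it. COX7A2 (1347), a form of subunit VIIa not confined to striated muscle, went from 70.3, 67.5 and 71.7 CPM to 82.3, 77.2 and 82.7 CPM, again without overlap. On the log2 scale it differed by 0.21 ± 0.05 (adjusted p-value 0.077, and 0.019 with the block). COX6B1 (1340), a subunit on the intermembrane face, went from 49.2, 51.2 and 43.6 CPM to 53.8, 58.9 and 58.8 CPM, with a fold change on the log2 scale of 0.25 ± 0.07 (0.0891, and 0.0215 with the block). Its groups did not overlap either.

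Other complex IV subunits did not pass. COX4I1, the ubiquitous form of the largest nuclear-encoded subunit, averaged 105.2 ± 4.20 CPM under vehicle and 111.3 ± 5.07 CPM under Aβ42, with a fold change on the log2 scale of 0.08 ± 0.05 (adjusted p-value 0.365). COX6A1 had 0.09 ± 0.06 (0.363), and COX7A2L, a factor in joining complexes III and IV into supercomplexes, 0.08 ± 0.06 (0.434). Both were at -0.02 on the log2(TPM + 1) scale, where the median of all genes was -0.04. COX5A and COX8A were the 2 tested subunits with a log2 fold change below 0, at -0.03 ± 0.06 and -0.04 ± 0.08, and the groups overlapped for both. Aβ42 replicate 3 held the highest of the 6 values for 8 of the 11 subunits (72.7%, against 19.7% of all genes tested). No vehicle library held the highest value for any of them.

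**Figure D3:**
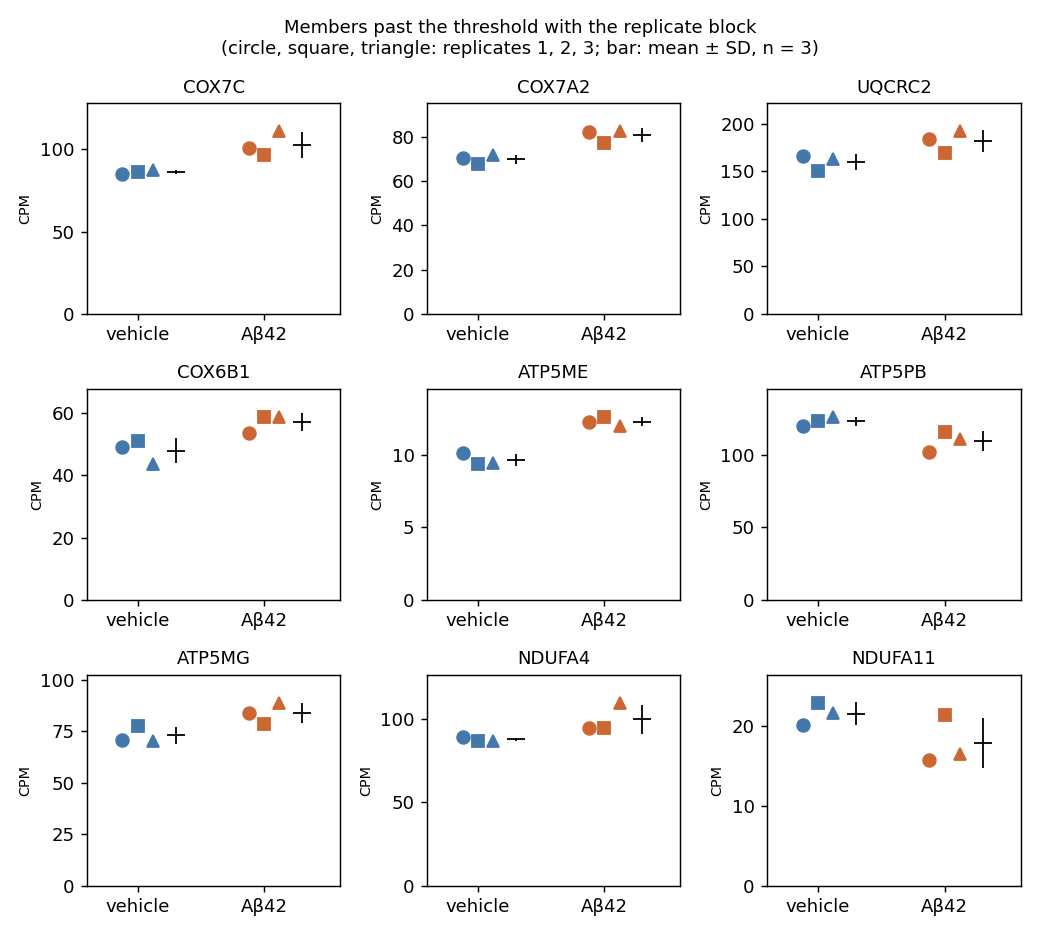
CPM (vertical axis, from 0) in each library for the 9 members past the threshold with the replicate block, vehicle in blue and Aβ42 in orange, with the mean ± SD of 3 libraries as a black bar. In every panel but that of NDUFA11 the groups are apart, and the separation is small beside the level, as for COX7C at 86.1 ± 1.04 CPM under vehicle and 102.6 ± 7.69 CPM under Aβ42.

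NDUFA4, long listed under complex I and later placed with complex IV, was grouped apart. It went from 89.2, 87.2 and 87.1 CPM to 94.8, 95.02 and 110.0 CPM, so every Aβ42 library was above every vehicle library and replicate 3 stood highest. The log2 fold change was 0.19 ± 0.06 (adjusted p-value 0.121, and 0.0481 with the block). Its paralog NDUFA4L2, a target of hypoxia-inducible factor that is known to lower complex I activity, was far less abundant, with 89, 22 and 38 counts under vehicle and 58, 58 and 59 counts under Aβ42. The Aβ42 libraries lay inside the vehicle range. Its log2 fold change was 0.22 ± 0.42 (adjusted p-value 0.78), and -0.13 without vehicle replicate 2. The log2 ratio of NDUFA4L2 to NDUFA4 in TPM was -2.78, -4.89 and -4.03 under vehicle and -3.60, -3.47 and -3.68 under Aβ42. The means differed by 0.32 (exact permutation p-value 0.7, two-sided, n = 3 each, where 0.1 is the smallest that this design allows).

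Forms known from other tissues were at or near 0. COX4I2, the form of subunit IV found mainly in lung, and COX7B2 had no counts in any library, so that each could hold 3 counts, or 0.182 CPM, at most by counting error alone. COX8C had 1 count in Aβ42 replicate 1 and 0 elsewhere, and COX6B2, a testis form, had 3 to 7 counts. These genes were not tested, and the ratio of COX4I2 to COX4I1 was not computed. The muscle forms of subunits VIa and VIIa were not analysed here. Also below the filter were UQCRHL (0 to 10.01 estimated counts), which resembles UQCRH, the read-through ATP5MF-PTCD1 (0 to 13.64) and ATP5MGL (1 count in 1 library).

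Complex V had 13 of 18 tested genes above 0, with a median log2 fold change of 0.08 on counts that was 0.02 after the length correction. On the log2(TPM + 1) scale the median was -0.0009, against -0.04 over all genes tested. At an unadjusted p-value below 0.05, 5 were higher and 1 lower, against 12.4% and 11.5% of all genes tested. Catalytic F1 subunits were the most highly counted members. ATP5F1A (the α subunit) stood at 455.7, 459.6 and 467.2 CPM under vehicle and 493.3, 479.5 and 514.4 CPM under Aβ42, with no overlap (0.11 ± 0.05, adjusted p-value 0.194). ATP5F1B (the β subunit) stood at 436.9, 432.3 and 432.1 CPM and 441.0, 447.2 and 469.6 CPM, also with no overlap (0.06 ± 0.04, adjusted p-value 0.422).

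Membrane accessory subunits, which help to join ATP synthase into dimers, included both members of complex V that rose with the block. ATP5ME (Entrez gene ID 521) went from 10.2, 9.36 and 9.45 CPM to 12.3, 12.6 and 11.996 CPM without overlap, with a fold change on the log2 scale of 0.35 ± 0.10 (adjusted p-value 0.0889, and 0.0389 with the block). It was at 0.19 on the log2(TPM + 1) scale and did not pass there. ATP5MG (10632) went from 71.01, 77.8 and 70.4 CPM to 84.1, 78.8 and 88.95 CPM, where Aβ42 replicate 2 lay just above vehicle replicate 2 (0.20 ± 0.06, adjusted p-value 0.108, and 0.0468 with the block). ATP5MF and ATP5MK, of the same group, had log2 fold changes of -0.12 ± 0.08 and 0.13 ± 0.08 (adjusted p-values 0.373 and 0.337 by edgeR). On the log2(TPM + 1) scale ATP5MF was at -0.27 and ATP5MK at -0.04, where the median of all genes was also -0.04. Neither passed there.

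ATP5PB, the b subunit of the peripheral stalk (Entrez gene ID 515), fell with the block. It went from 119.9, 123.5 and 126.5 CPM to 102.3, 116.0 and 110.8 CPM, and the groups did not overlap. The log2 fold change was -0.17 ± 0.06 (adjusted p-value 0.116, and 0.0419 with the block). Its estimated counts were not whole, so its level is uncertain where reads are shared. ATP5PO of the same stalk was on the other side, from 88.9 ± 5.43 to 96.9 ± 3.14 CPM (0.13 ± 0.06, adjusted p-value 0.208 by edgeR). ATP5IF1, the inhibitor that blocks ATP hydrolysis when the membrane potential falls, stood at 35.2, 38.2 and 38.7 CPM and 35.8, 38.1 and 36.7 CPM (-0.02 ± 0.07, adjusted p-value 0.868).

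ATP5MC1, ATP5MC2 and ATP5MC3 encode the same mature c subunit of the rotor ring and differ in their import sequences. ATP5MC3 gave the largest share of their counts, 54.7%, 56.3% and 52.4% under vehicle and 49.5%, 52.6% and 52.7% under Aβ42. The share of ATP5MC2 was 33.0%, 30.6% and 35.0% under vehicle and 38.5%, 33.9% and 34.2% under Aβ42. For both genes Aβ42 replicates 2 and 3 lay inside the vehicle range and Aβ42 replicate 1 outside it.

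Scores per library show which libraries carry these differences. A score averages, over the tested members of a complex, how far a library's log2 CPM lies from that gene's average. For complex IV it was -0.06, -0.03 and -0.07 under vehicle and 0.0098, 0.04 and 0.11 under Aβ42, so the groups were apart and Aβ42 replicate 3 stood highest. For complex I it was 0.0008, 0.02 and -0.02 under vehicle and -0.07, 0.05 and 0.02 under Aβ42. Aβ42 replicates 1 and 2 thus lay on either side of all vehicle libraries. Complex II had -0.07, -0.08 and -0.01 under vehicle and 0.06, -0.01 and 0.11 under Aβ42, and complex V -0.03, -0.03 and -0.04 under vehicle and -0.0081, 0.05 and 0.05 under Aβ42. In both the groups were apart, though for complex II vehicle replicate 3 and Aβ42 replicate 2 nearly met. In complex III the groups overlapped, as Aβ42 replicate 1 (-0.05) lay below all vehicle libraries (-0.04 to -0.01).

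**Figure D4:**
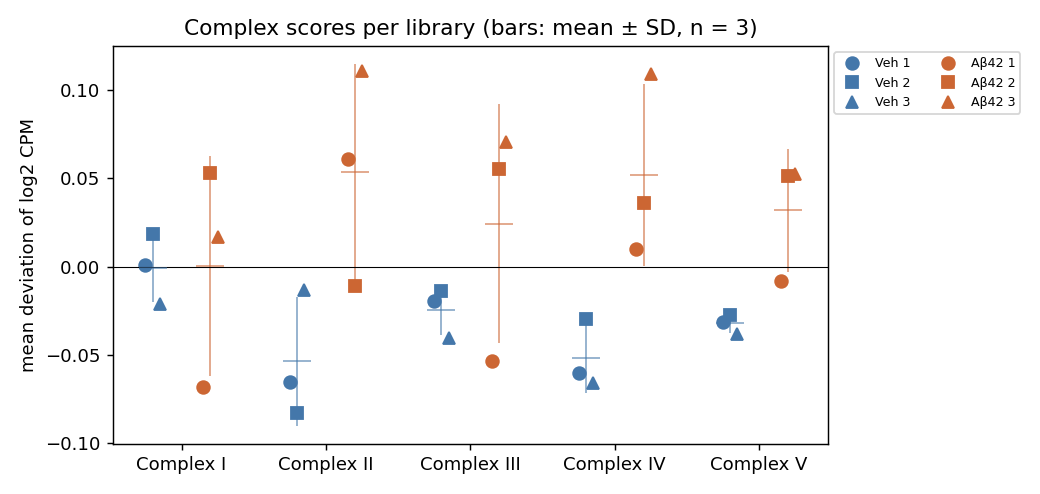
Score of each complex (vertical axis, mean deviation of log2 CPM from each gene's mean) in the 3 vehicle libraries (blue) and 3 Aβ42 libraries (orange), with mean ± SD bars; circles, squares and triangles are replicates 1, 2 and 3. The groups are apart for complexes II, IV and V, only narrowly for complex II. For complex I Aβ42 replicate 1 (-0.07) is the lowest and Aβ42 replicate 2 (0.05) the highest of the 6 libraries.

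Gene length moved with these differences. Most members are short genes: 58 of the 83 tested members lay in the shortest 10% of tested genes. Among those 1378 short genes the median log2 fold change was 0.06 and 63.9% were above 0, against 66.3% of members and 50.7% of all genes tested. In the longest 10% the median was -0.04. After the correction of each library for gene length, the medians were -0.04 for complex I, 0.08 for complex II, -0.02 for complex III, 0.03 for complex IV and 0.02 for complex V, and no member passed. With the correction and the block together 5 members passed, 6.02% of those tested against 14.6% of all genes. COX7C (0.0283) and UQCRC2 (0.036) rose, and NDUFA11 (0.0167), ATP5PB (0.0186) and NDUFC2 (0.0461) fell, the values being adjusted p-values by edgeR's quasi-likelihood test. The other 5 members called with the block alone, COX7A2, COX6B1, ATP5ME, ATP5MG and NDUFA4, did not pass there (0.15, 0.0828, 0.208, 0.112 and 0.0763). Estimated counts of NDUFC2, like those of the read-through NDUFC2-KCTD14, were not whole, so its level is uncertain where reads are shared.

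**Figure D5:**
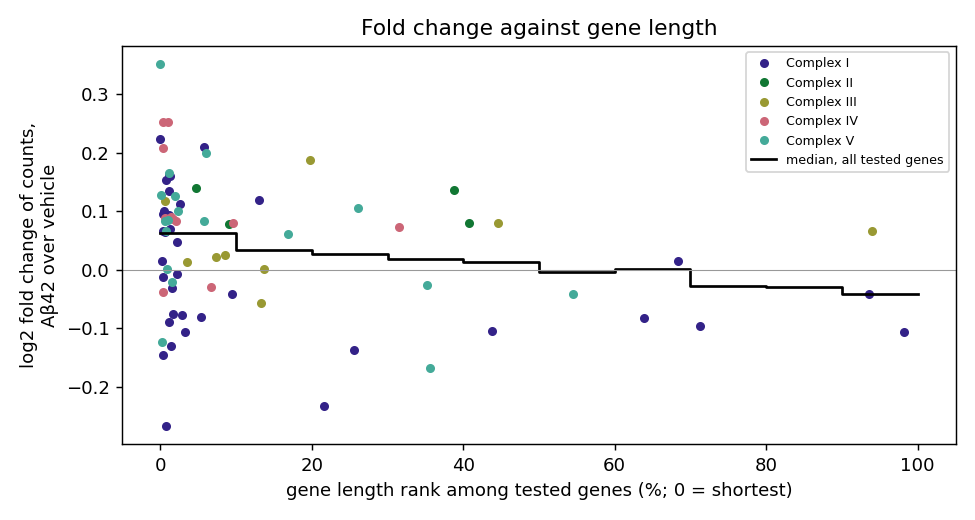
Log2 fold change of counts (vertical axis) against the rank of gene length among tested genes (horizontal axis, 0% the shortest) for members of the 5 complexes (coloured points), with the median of all tested genes in each 10% of genes by length (black steps). The steps go from 0.06 at the shortest to -0.04 at the longest, and most members lie at the short end.

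As levels per gene length, summed TPM of complex I was 7239, 7576 and 7332 under vehicle and 6573, 7432 and 7149 under Aβ42. For complex II the sums were 406.2 to 425.0 under vehicle and 404.0 to 417.7 under Aβ42, and for complex III 1462 to 1536 and 1446 to 1595. Complex IV summed to 5420, 5513 and 5544 under vehicle and 5475, 5674 and 5842 under Aβ42, and complex V to 7128 to 7304 and 7016 to 7341. The groups overlapped for each complex. Over the 6 libraries, tested complex IV genes ran from 45.7 TPM (COX7B) to 1254 TPM (COX7A2) and those of complex V from 36.5 TPM (ATP5F1E) to 951.5 TPM (ATP5MK). The median implied length of members was 98.0% to 99.7% of the gene's mean under vehicle and 100.7% to 101.5% under Aβ42, and a longer implied length gives a lower TPM for the same count.

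Other gene lists, mostly of mitochondrial genes, were read from the same edgeR fit without a block, and none of their genes passed in it. Counts at an unadjusted p-value below 0.05 in these lists stand against 12.4% of all genes higher and 11.5% lower. Of 18 complex I assembly factors 1 was higher (TMEM186, 0.29 ± 0.10) and 1 lower (COA1, -0.18 ± 0.06) at an unadjusted p-value below 0.05, with adjusted p-values of 0.129 and 0.129. No assembly factor of complex II (4 tested), III (6), IV (25) or V (6) reached that level. First by p-value were SDHAF3 (0.19) and SDHAF2 (-0.13), UQCC2 (0.14) and TTC19 (-0.07), HIGD2A (0.15) and COA3 (-0.18), and TMEM242 (-0.11) and FMC1 (-0.34), the values being log2 fold changes. The medians over these lists were -0.03 for complex I factors, 0.03 for complex II, 0.02 for complex III, -0.05 for complex IV and -0.10 for complex V.

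Of 13 enzymes of the tricarboxylic acid cycle 1 was lower at an unadjusted p-value below 0.05, DLD (-0.12 ± 0.05, adjusted p-value 0.202), and SUCLG1 came next (0.15 ± 0.08, 0.252). Among 20 genes of mitochondrial gene expression and biogenesis 3 were higher and 0 lower at that level, near the 12.4% of all genes for the higher side. They include PPARGC1A, the coactivator that drives mitochondrial biogenesis, from 20.9 ± 1.005 to 24.7 ± 1.70 CPM (0.24 ± 0.08, adjusted p-value 0.121 by edgeR), and POLRMT, the mitochondrial RNA polymerase (0.26 ± 0.09, 0.124, and 0.0227 with the block). Coenzyme Q synthesis had 2 of 13 higher and 1 lower, with COQ8A (0.41 ± 0.12, adjusted p-value 0.0896, and 0.0145 with the block) and COQ5 (0.18 ± 0.06, 0.132) first by p-value.

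Protein import, on which every nuclear-encoded subunit depends, had 6 of 28 higher and 0 lower, against 12.4% and 11.5% of all genes. The import chaperone HSPA9 went from 317.7 ± 13.9 to 366.2 ± 8.42 CPM (0.20 ± 0.05, adjusted p-value 0.0734, and 0.0095 with the block by edgeR), and TOMM7 of the outer membrane pore from 37.7 ± 1.57 to 45.9 ± 2.82 CPM (0.28 ± 0.07, 0.0734, and 0.00915 with the block). With the block and length correction TOMM7 did not pass (0.0613), and HSPA9 did (0.00463). Without a block, DESeq2 called both HSPA9 (adjusted p-value 0.0104) and TOMM7 (0.0438), while limma-voom without sample weights called no gene. Of the 3 outer membrane channels VDAC2 was higher at an unadjusted p-value below 0.05 (0.15 ± 0.05, adjusted p-value 0.121) and VDAC3 was at 0.07 ± 0.05. A list of 10 targets of hypoxia-inducible factor, not all of them mitochondrial (LDHA and PFKFB3 among them), had a median of 0.20. At that level 2 of 10 were higher (12.4% of all genes), LONP1 (0.20 ± 0.07, 0.14) and BNIP3L (0.21 ± 0.08, 0.156, and 0.00883 with the block). BNIP3L groups overlapped, with vehicle replicate 1 at 320.4 CPM and Aβ42 replicate 2 at 312.8 CPM. The list's scores were 0.0906, -0.3726 and -0.037 under vehicle and 0.1318, 0.0961 and 0.091 under Aβ42, with vehicle replicate 2 far the lowest.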

How the data were processed

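Polyadenylated RNA was sequenced from stranded, PCR-amplified libraries, per the labels' protocols. The submitters' processing notes name FastQC, STAR 2.7.11b, featureCounts 2.0.6 and GRCh38. The annotation, the strand setting and the handling of shared reads are not given in the sources used here. The deposited read counts were treated as estimated counts, because only 86.9% to 87.5% of the authors' values in a library were whole, and were rounded. The deposited TPM, per the file headers, were used as levels per gene length.

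Groups were compared with edgeR 4.0.16 in R 4.3.3 (filterByExpr, TMM, robust quasi-likelihood, no block, two-sided, Benjamini-Hochberg adjustment over the 13842 genes tested, threshold 0.05). SE was taken from the log2 fold change and the F statistic, as the former's size over the root of the latter. CPM use TMM factors. The common biological coefficient of variation was 6.75%. Alternatives used limma 3.58.1, DESeq2 1.42.0, other scalings and filters, each library left out, and a loess correction (span 0.5) of each library for gene length, taken as count over TPM. The edgeR fits, with and without block and length correction, were tested on simulated counts that held no replicate effect and no length trend. A floor of 3 counts covers counting error only.

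The labels number replicates 1 to 3 in both groups. Deviations from group means correlated at 0.181, 0.388 and 0.129 between same-numbered libraries over 12186 genes, each above 0.1, and libraries were treated as paired by number on that basis alone. Differently numbered libraries gave -0.302 to 0.177, with 0.177 and 0.154 between numbers 1 and 3.

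Members, gene lists, promoter motifs and tests were chosen with earlier results of these data known. Named members were, per complex, the 2 most abundant by TPM, the 2 of smallest p-value in each direction, a list of catalytic subunits and paralog forms, and every member below the filter, and per list of other genes the 2 of smallest p-value. The values of 1 such member are not reported here, and it is left out of the plots of single members but not of the counts. COX6B1, COX5B, COX7B, SDHD, NDUFC2, NDUFC2-KCTD14, ATP5PO, ATP5F1E and the ATP5MC genes fall outside that rule and were chosen after their values were seen.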

Additional observations from a re-analysis of the deposited data

How the results depend on the processing

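Depth limits what could be seen in the 7 members below the filter. Genes passing over the whole table, 0 in the reported fit, numbered 360 with no filter on low counts, 804 with DESeq2, 2457 with sample quality weights, 1962 with the replicate block and 2017 with the block and length correction, and 0 to 3224 when single libraries were left out. Members passing numbered 1, 1, 10, 9 and 5 in those fits and 0 to 12 when single libraries were left out, all 12 without Aβ42 replicate 2. Members at an unadjusted p-value below 0.05 numbered 15, and 8 (without Aβ42 replicate 3) to 24 (without Aβ42 replicate 2). Sample quality weights put Aβ42 replicate 2 at 0.395 and the other libraries at 1.001 to 1.63, and 9 of the 10 members called with them were those of the block. Why DESeq2 and the unfiltered fit called more was not tested.

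Median log2 fold changes of complexes I to V were -0.078, 0.0394, -0.0351, 0.0068 and -0.0009 on the log2(TPM + 1) scale and -0.0804, 0.0397, -0.0356, 0.0068 and -0.0009 with 0.1 in place of 1. With the length correction those of complexes IV and V were 0.0316 and 0.0195, and with the block and length correction 0.0325 and 0.0204. When single libraries were left out, complex III ran from 0.0104 to 0.097 and complex V from 0.0558 to 0.1016. The median of all genes tested was -0.0401 on the log2(TPM + 1) scale.

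Of 57 named genes 43 kept their sign in all 18 alternatives and 14 did not. Of the 14, SDHC passed with quality weights and without Aβ42 replicate 2. On the log2(TPM + 1) scale and then with 0.1 in place of 1 (1 value where both are equal) the log2 fold changes were ATP5IF1 0.0122 and 0.0123, ATP5MK -0.0393, COX6A1 -0.0187, COX7A2L -0.02 and -0.0201, CYC1 -0.0351 and -0.0356, NDUFA13 -0.0101 and -0.0102, NDUFS5 -0.0548, SDHC -0.1356 and -0.1365, UQCRC1 -0.0522 and -0.0526. With the length correction and then with the block and length correction they were CYC1 -0.0229 and -0.0247, CYCS 0.0028 and 0.0023, NDUFS5 -0.0185 and -0.022, UQCRC1 -0.0392 and -0.0397. UQCRC1 was at -0.0008 under RLE scaling and -0.0008 with DESeq2, and quality weights gave UQCRC1 -0.0066 and CYC1 -0.0097. When single libraries were left out, ATP5IF1 ran from -0.0622 to 0.0061, COX5A ran from -0.0826 to 0.0132, COX8A ran from -0.1133 to 0.0112, CYC1 ran from -0.0408 to 0.104, CYCS ran from -0.0575 to 0.007, NDUFA4L2 ran from -0.1299 to 0.9376, NDUFS5 ran from -0.0312 to 0.1154, UQCRC1 ran from -0.0273 to 0.0366 and UQCRQ ran from -0.1232 to 0.0272.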
